A study of Mus musculus with 12 samples.

Results

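GABA is the main inhibitory transmitter of the striatum, and 6 genes for its synthesis, its loading into vesicles and its receptors were followed here across genotype and age. Gad1 and Gad2 encode the glutamate decarboxylases that make GABA, Slc32a1 encodes the vesicular transporter that loads it, and Gabra2, Gabra4 and Gabrd encode the α2, α4 and δ subunits of the GABA-A receptor. They were chosen as a list of names, with earlier results of these data known. Each was read from every probe set that the probe table paired with that gene alone, with the brightest probe set representing the gene. All 6 were found, by 17 probe sets (2 each for Gad1, Gad2, Gabra4 and Gabrd, 4 for Slc32a1 and 5 for Gabra2), out of 18193 genes with a probe set of their own and 45037 probe sets tested.

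RNA from the striatum of 12 C57BL/6 mice was hybridised to Affymetrix mouse arrays, 1 array per mouse, in 4 groups of 3. Q92 mice are homozygous knock-ins (HdhQ92/Q92) in which a stretch of 92 CAG repeats from the first exon of the human Huntington's disease gene lies in the mouse gene Htt (older symbol Hdh), and the controls were labelled wild-type. At 3 months the 3 wild-type mice (1 female, 2 males) and the 3 Q92 mice (2 females, 1 male) were 100 to 103 days old. At 18 months the wild-type mice (2 females, 1 male) were 596 to 604 days old and the Q92 mice (2 females, 1 male) 567 to 596 days. Mice are named below by their number in the labels. Values are log2 signals per probe set, so a difference of 1 is a doubling, and groups are given as mean ± SD (n = 3). Every difference is given as Q92 less wild-type mice, or as old less young mice, with its limma test adjusted over all 45037 probe sets.

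Most striatal neurons are GABAergic projection neurons, and a smaller population of GABAergic interneurons also expresses Gad1, Gad2 and Slc32a1. GABA acts on GABA-A receptors, pentameric chloride channels. Receptors with α2 sit mainly at synapses, and those that combine α4 with δ lie outside synapses, where they carry a tonic current in response to low ambient GABA. Projection neurons express Gabra2, Gabra4 and Gabrd, and loss of these neurons or of their gene products is a known feature of Huntington's disease models.

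To show the genes as well as their values, the 250 bases before a start of transcription given by RefSeq (GRCm38.p6) are printed on the coding strand. They are given for both decarboxylase genes and for both α subunit genes, since each of these couples is a pair of related genes. For Gad1 and Gad2 the window lies inside the RefSeq span of the gene, which begins at 70561303 and 22621015. The start used there is thus not the outermost one. Capitals mark the matches on either strand to the 4 motifs that the next paragraph spells out.
Gad1, chr2:70561879-70562128, plus strand: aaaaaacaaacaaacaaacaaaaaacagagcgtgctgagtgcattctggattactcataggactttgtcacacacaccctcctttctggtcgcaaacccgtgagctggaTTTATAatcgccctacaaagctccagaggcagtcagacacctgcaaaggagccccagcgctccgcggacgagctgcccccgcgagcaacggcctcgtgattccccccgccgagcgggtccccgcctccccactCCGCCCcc
Gad2, chr2:22622077-22622326, plus strand: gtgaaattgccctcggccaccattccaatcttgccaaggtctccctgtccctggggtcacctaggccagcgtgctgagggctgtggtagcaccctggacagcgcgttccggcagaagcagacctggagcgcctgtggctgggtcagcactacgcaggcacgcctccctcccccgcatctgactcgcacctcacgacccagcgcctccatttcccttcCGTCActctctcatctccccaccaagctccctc
Gabra2, chr5:71095850-71096099, minus strand: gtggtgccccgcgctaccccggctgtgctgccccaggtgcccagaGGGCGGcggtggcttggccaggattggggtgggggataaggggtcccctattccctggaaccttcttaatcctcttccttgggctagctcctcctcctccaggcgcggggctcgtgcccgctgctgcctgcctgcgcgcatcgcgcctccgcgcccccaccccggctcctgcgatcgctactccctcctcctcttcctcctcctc
Gabra4, chr5:71658309-71658558, minus strand: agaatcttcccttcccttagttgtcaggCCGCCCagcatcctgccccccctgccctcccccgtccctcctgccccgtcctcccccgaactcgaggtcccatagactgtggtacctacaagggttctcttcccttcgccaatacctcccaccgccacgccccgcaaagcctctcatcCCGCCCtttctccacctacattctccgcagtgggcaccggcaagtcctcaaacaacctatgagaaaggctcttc

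Promoter sequence was at hand for 5 of the 6 genes, Gabrd being named only. The Slc32a1 window, like those of Gad1 and Gad2, lies inside the RefSeq span of its gene. A GC box (GGGCGG) was found in the windows of Gad1, Gabra2 (1 match each) and Gabra4 (2 matches), against 32.7% of the 32851 windows of this length. The core of a cAMP response element, spelled TGACG, was found in the window of Gad2 (17.8% of windows). Gad1 alone held a match to the letters of a TATA box, searched as TATAAA (12.4% of windows). It lay on the opposite strand with its first printed base at -141 from the start. An EGR site, searched as GCGNGGGCG, was found in none of the 5 (4.7% of windows), and its letters can overlap those of a GC box. The GC content of the 5 windows ran from 58% to 70%, with a median of 52.4% over all windows. These matches describe letters in a window and nothing about binding.

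At 18 months the means of all 6 genes, at their brightest probe sets, were lower in Q92 than in wild-type mice, and none passed the test. The largest difference was that of Gabrd, a 1.62-fold lower level in Q92 mice, and the smallest was that of Gad1. Between them lay Gad2, Slc32a1, Gabra4 and Gabra2. In this comparison 24 probe sets were called at an adjusted p of 0.05, which is 0.0533% of those tested, and 0 of the 17 probe sets of these genes were among them. At an unadjusted p under 0.05 there were 2 of the 6 genes (Gabrd and Gad2), against 8.03% of all genes. The median log2 difference of the 6 genes was -0.17, and that of all genes was -0.00136.

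**Figure D1:**
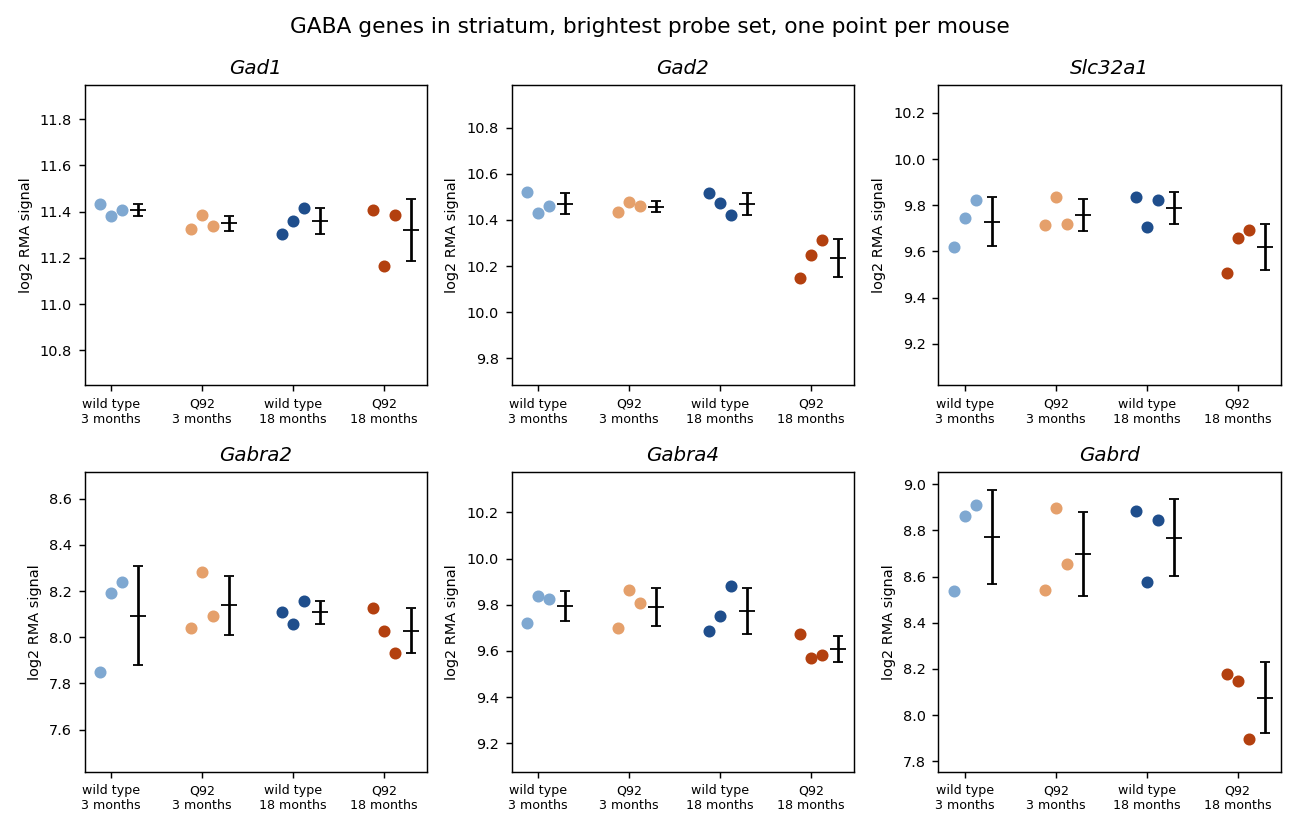
Log2 signal of the brightest probe set of each of the 6 genes (y axis, every panel spanning the same range) in the 4 groups of 3 mice (x axis). Points are mice, and the bar beside them is the mean ± SD. The old Q92 mice lie below all other mice for Gabrd (7.90 to 8.18), Gad2 (10.15 to 10.31) and, narrowly, Gabra4 (9.57 to 9.67), while for Gad1 the 4 groups overlap.

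Of the synthesis genes, Gad1 encodes the decarboxylase that supplies most of the cell's GABA, and its signal hardly differed between the groups. It read 11.43, 11.38 and 11.41 in the 3 young wild-type mice and 11.33, 11.39 and 11.34 in the young Q92 mice. At 18 months it read 11.30, 11.36 and 11.41 in wild-type mice 9, 12 and 17 and 11.41, 11.17 and 11.38 in Q92 mice 11, 25 and 66. The old groups overlapped, and Q92 mouse 25 alone lay below the wild-type range. The difference at 18 months was -0.04 (SE 0.09, 95% confidence interval -0.23 to 0.15, adjusted p = 0.963 in limma). The second Gad1 probe set gave -0.12 (interval -0.41 to 0.18), also with overlapping groups.

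Gad2 encodes the decarboxylase that is concentrated at nerve terminals. Its brightest probe set read 10.52, 10.43 and 10.46 in young wild-type, 10.43, 10.48 and 10.46 in young Q92, and 10.52, 10.47 and 10.42 in old wild-type mice. In the old Q92 mice it read 10.15, 10.25 and 10.31. These 3 values lay below those of the other 9 mice, a pattern also found for Gabra4 and Gabrd and for 1.81% of all probe sets. The difference at 18 months was -0.23 (SE 0.08, interval -0.41 to -0.06), a 1.18-fold lower level, with an unadjusted p of 0.0119 and an adjusted p of 0.461 in limma. The second Gad2 probe set, which is dimmer (mean 7.84), gave -0.06 (interval -0.32 to 0.19) with overlapping groups. Within each mouse, the Gad2 signal minus the Gad1 signal lay between -1.26 and -0.92 in old Q92 and between -0.99 and -0.78 in old wild-type mice. The genotype difference of Gad2 was thus -0.20 apart from that of Gad1 (exact permutation p = 0.2, two-sided, 0.2 after adjustment over the 2 gene pairs compared in this way, where 0.1 is the smallest that 3 mice against 3 allow). Both pairs were chosen after the values had been seen.

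Slc32a1, the vesicular GABA transporter, read 9.83, 9.71 and 9.82 in old wild-type mice and 9.50, 9.66 and 9.69 in old Q92 mice. The old groups did not overlap, but mouse 66 (9.69) and wild-type mouse 12 (9.71) nearly touched. In young mice it read 9.62, 9.75 and 9.83 in wild type and 9.72, 9.84 and 9.72 in Q92, so the range of the young wild-type mice covered 2 of the 3 old Q92 values. The difference at 18 months was -0.17 (SE 0.09, interval -0.37 to 0.03, adjusted p = 0.704 in limma). The 3 other probe sets of Slc32a1 were dim (means of 3.86 to 5.04, at the 32.9th to 50.8th percentile of all probe sets) and gave differences between -0.10 and 0.01.

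Among the receptor genes, Gabrd, the δ subunit, had the widest gap between the old Q92 mice and the others. It read 8.54, 8.86 and 8.91 in young wild-type, 8.54, 8.90 and 8.65 in young Q92 and 8.88, 8.58 and 8.85 in old wild-type mice. In old Q92 mice 11, 25 and 66 it read 8.18, 8.15 and 7.90. The highest of these was below the lowest of the other 9 (8.54), and the other 3 groups covered nearly the same range. The means at 18 months were 8.08 ± 0.15 in Q92 and 8.77 ± 0.17 in wild-type mice, a difference of -0.69 (SE 0.14, interval -0.99 to -0.40), with an unadjusted p of 2.36e-04 and an adjusted p of 0.128 in limma. Ordered from the most negative difference, Gabrd stood at place 131 of 18193 genes. The second Gabrd probe set read near the bottom of the array's scale (mean 3.57, at the 27.1th percentile) and gave 0.20 (interval -0.08 to 0.48), with the old Q92 mice above the old wild-type mice.

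Gabra4, the α4 subunit that partners δ, differed less. It read 9.69, 9.75 and 9.88 in old wild-type and 9.67, 9.57 and 9.58 in old Q92 mice, groups that did not overlap but nearly touched at the nearest mice (9.67 and 9.69). In the young mice it read 9.72, 9.84 and 9.82 in wild type and 9.70, 9.86 and 9.81 in Q92, so the old Q92 mice were also below both young groups. The difference at 18 months was -0.16 (SE 0.09, interval -0.35 to 0.03, adjusted p = 0.700 in limma). The second probe set, nearly as bright (mean 9.46), gave 0.19 (interval -0.32 to 0.70) and varied widely among young wild-type mice (9.49, 10.002 and 8.79), so the Gabra4 probe sets disagreed in direction. Within each mouse, the Gabrd signal minus the Gabra4 signal lay between -1.69 and -1.42 in old Q92 and between -1.17 and -0.80 in old wild-type mice, so that the genotype differences of these genes were -0.53 apart (exact permutation p = 0.1, two-sided, the smallest the design allows, and 0.2 after adjustment over both pairs).

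Gabra2, the α2 subunit, gave no direction that its probe sets shared. The brightest read 8.11, 8.06 and 8.16 in old wild-type and 8.13, 8.02 and 7.93 in old Q92 mice, which overlapped, a difference of -0.08 (SE 0.11, interval -0.33 to 0.17, adjusted p = 0.932 in limma). In young mice it read 7.85, 8.19 and 8.24 in wild type and 8.04, 8.28 and 8.09 in Q92. The second (mean 7.83) gave 0.07 (interval -0.21 to 0.35). The third (mean 6.37) read 6.22, 6.11 and 6.09 in old wild-type and 6.70, 6.50 and 6.44 in old Q92 mice. These groups did not overlap, in the opposite direction to the brightest probe set, and the difference was 0.40 (interval 0.01 to 0.79, adjusted p = 0.620 in limma). At 3 months the third gave 0.29 (interval -0.10 to 0.68) with overlapping groups. The 2 dimmest Gabra2 probe sets (means 3.16 and 2.68) gave 0.10 (interval -0.12 to 0.32) and 0.24 (interval 0.07 to 0.41). The latter had an unadjusted p of 0.0104 and an adjusted p of 0.443 in limma, with old Q92 mice above old wild-type mice. In that probe set the old wild-type mice stood apart (mean 2.51), beside 2.72 in young wild-type, 2.74 in young Q92 and 2.75 in old Q92 mice.

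Of the 6 genes, 4 (Gad2, Slc32a1, Gabra4 and Gabrd) had old Q92 mice entirely below old wild-type mice at their brightest probe set, and 0 entirely above. Over all probe sets tested, 6.76% lay entirely below in this comparison and 7.02% entirely above. Among all 17 probe sets of these genes, 4 lay entirely below and 3 entirely above, the latter being 2 of Gabra2 and the second of Gabrd.

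**Figure D2:**
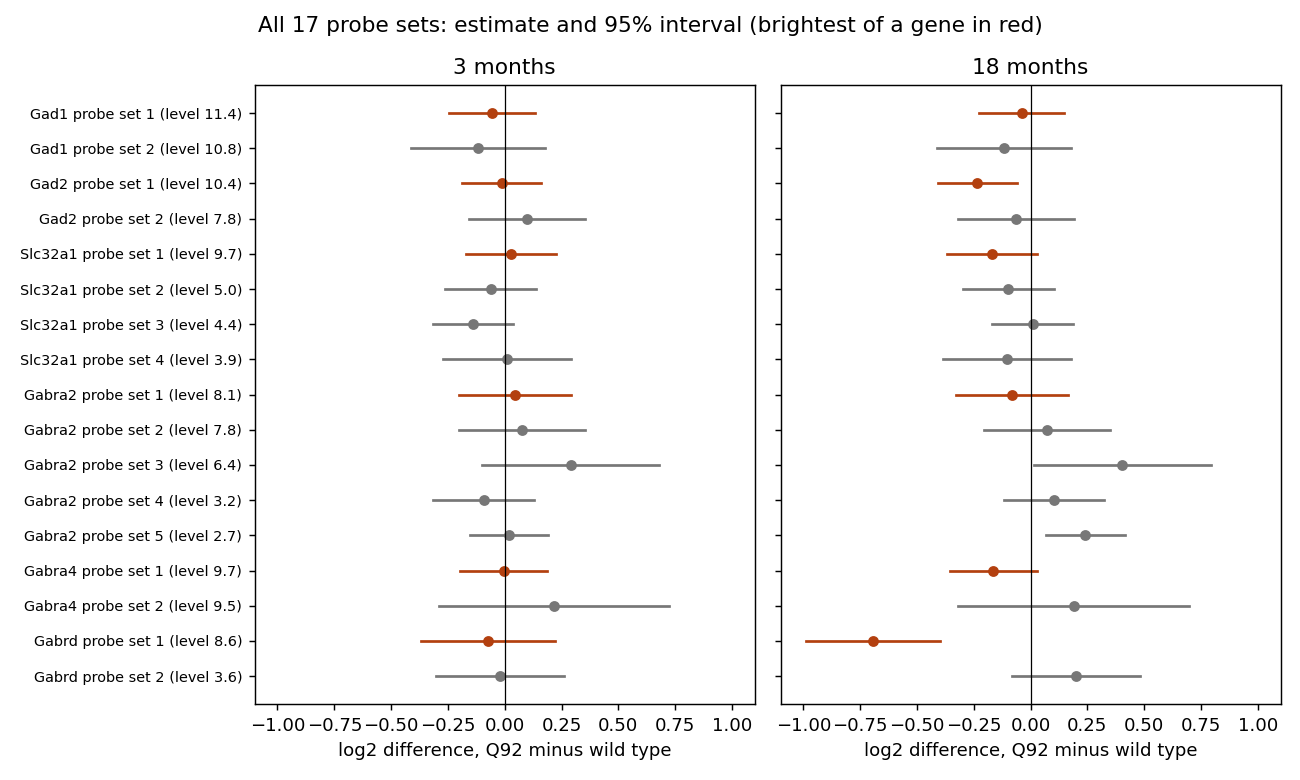
Log2 difference between Q92 and wild-type mice (x axis, point) with its 95% confidence interval (line) for each of the 17 probe sets (y axis, ordered by gene and then by mean signal, which is printed as the level) at 3 and at 18 months. The brightest probe set of a gene is in red. At 18 months the brightest Gabrd probe set is at -0.69 and the interval of every other brightest probe set but that of Gad2 includes 0.

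In the young mice no genotype difference was detected for any of the 6 genes. The 6 differences ran from -0.07 (Gabrd, interval -0.37 to 0.22) to 0.04 (Gabra2, interval -0.20 to 0.29), 4 negative and 2 positive, with a median of -0.01 beside -0.02 over all genes. All adjusted p were 1.00 in limma, 0 of 6 genes reached an unadjusted p under 0.05, and 5 probe sets (0.0111% of those tested) were called. The groups overlapped for each of the 6 brightest probe sets.

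The change of the genotype difference between 3 and 18 months was tested directly. It was -0.62 for Gabrd (SE 0.19, interval -1.04 to -0.20), with an unadjusted p of 0.00706 and an adjusted p of 0.935 in limma. It was -0.22 for Gad2 (interval -0.47 to 0.02), -0.20 for Slc32a1 (-0.48 to 0.08), -0.16 for Gabra4 (-0.43 to 0.11), -0.13 for Gabra2 (-0.48 to 0.22) and 0.02 for Gad1 (-0.25 to 0.28). The intervals of these 5 genes include 0. No probe set of the array was called in this comparison (0 of 45037, 0% of those tested), and 2335 had an unadjusted p under 0.05.

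Age alone left these genes near their young levels in wild-type mice. The differences between 18 and 3 months ran from -0.05 (Gad1, interval -0.24 to 0.14) to 0.06 (Slc32a1, interval -0.14 to 0.26), with a median of -0.00073, and the groups overlapped for all 6. In this comparison 23 probe sets (0.0511%) were called. In Q92 mice all 6 means were lower at 18 months, by -0.62 for Gabrd (SE 0.14, interval -0.92 to -0.33, unadjusted p = 5.93e-04, adjusted p = 0.109 in limma), -0.22 for Gad2 (interval -0.40 to -0.05, adjusted p = 0.334), -0.18 for Gabra4 (-0.37 to 0.01), -0.14 for Slc32a1 (-0.34 to 0.06), -0.11 for Gabra2 (-0.36 to 0.14) and -0.03 for Gad1 (-0.22 to 0.16). None passed, while 93 probe sets (0.206%) were called. Old and young Q92 mice did not overlap for Gad2, Slc32a1, Gabra4 and Gabrd, all with the old mice below, as for 7.62% of all probe sets. This comparison shares the old Q92 mice with the genotype comparison at 18 months.

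Ordered by group mean at the brightest probe set, the old Q92 mice were lowest for all 6 genes. The step from them to the next group was 0.62 for Gabrd (to young Q92 mice), 0.22 for Gad2 (to young Q92 mice), 0.16 for Gabra4 (to old wild-type mice), 0.11 for Slc32a1 (to young wild-type mice), 0.07 for Gabra2 (to young wild-type mice) and 0.03 for Gad1 (to young Q92 mice). The other steps in the order were between 0.00024 and 0.07, and none of the steps, first ones included, passed the test.

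The tissue itself was checked with marker lists. The 11 measured projection neuron markers (of 12) were all above the median gene, with a median at the 98.1th percentile. At 18 months all 11 had lower means in Q92 mice (median -0.81), of which Penk, the enkephalin precursor, passed (log2 difference -1.26, adjusted p = 0.00113 in limma). The mean of this list was 9.72, 9.91 and 9.26 in Q92 mice 11, 25 and 66 and 10.31 to 10.47 in old wild-type mice. Mouse 66 was lowest both in this list and in Gabrd. In bulk tissue, fewer cells of a type and less RNA per cell cannot be told apart. Interneuron markers (12 of 12 measured) averaged 6.62 to 7.10 in old Q92 and 6.89 to 7.09 in old wild-type mice, with 9 of 12 lower and none passing.

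Markers of neighbouring tissue varied among the old Q92 mice. The 9 measured cortical excitatory neuron markers (of 10) averaged 7.52 and 7.53 in mice 11 and 25 but 6.18 in mouse 66, beside 6.46 to 6.66 in old wild-type mice. The 10 thalamic and pallidal markers averaged 5.74 and 5.73 in mice 11 and 25 and 7.13 in mouse 66, beside 6.14 to 6.88. For Gabrd, mice 11, 25 and 66 read 8.18, 8.15 and 7.90, and whether neighbouring tissue bears on these values was not tested. Between the old groups, cortical markers were higher in Q92 mice in 8 of 9 (median 0.61), and thalamic and pallidal markers lower in 8 of 10 (-0.31). Astrocyte markers were lower in 9 of 10 (median -0.23), oligodendrocyte markers in 7 of 9 (-0.13) and neuroblast markers in 4 of 8 (-0.02). Choroid plexus markers were lower in 7 of 8 (-0.27), but their mean stood apart in wild-type mouse 12 (7.19, beside 4.73 and 4.40 in the other old wild-type mice), and the old Q92 mice (4.98, 5.89 and 5.20) were above those other mice. Without mouse 12 the Gabrd difference was -0.79 (adjusted p = 0.143 in limma). Among young mice this list stood apart in 1 Q92 mouse (7.36, beside 4.75 to 5.07 in the other 5). None of the members of the cortical, thalamic, glial, choroid or neuroblast lists passed, and the part of these lists in the results was not tested. An 18S ribosomal RNA control probe set (of the 5′ part) read 7.52, 6.21 and 8.31 in old Q92 mice and 5.64 to 5.75 in old wild-type mice. It read 5.28 to 8.70 in young wild-type and 6.66 to 11.2 in young Q92 mice. The old groups overlapped in the control of the 3′ part (7.19, 6.51 and 8.01 in Q92, 6.53 to 6.65 in wild-type mice). They also overlapped in that of the middle part (6.01, 5.21 and 6.41, beside 5.07 to 5.39). With the signal of the 5′ control as a covariate the Gabrd difference was -0.66 (adjusted p = 0.405 in limma), and without mouse 66 it was -0.60 (adjusted p = 0.217).

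**Figure D3:**
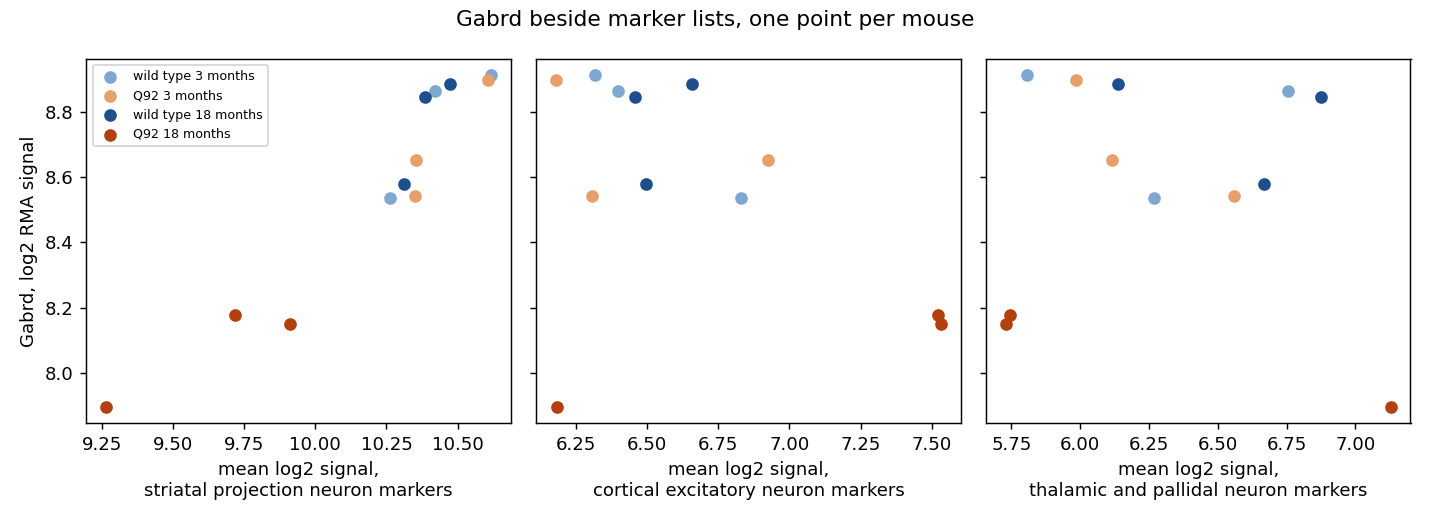
Log2 signal of the brightest Gabrd probe set (y axis) against the mean log2 signal of projection neuron, cortical and thalamic and pallidal markers (x axes), with 1 point per mouse coloured by group. The 3 old Q92 mice are at or below 8.18 for Gabrd and at or below 9.91 for the projection neuron list, apart from the other 9 mice on both axes, and are split by the cortical and thalamic lists.

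The genes whose signal most resembled that of each of the 6 over the 12 arrays were found by Pearson's r among 9095 brighter genes, as a description without a test. For Gabrd they were Cnr1 (r = 0.970), the cannabinoid receptor of projection neuron terminals, Strn (0.968), the calmodulin-binding scaffold striatin, and Rxrg (0.963), a retinoid X receptor. For Gabra4 they were the kinase gene Sbk1 (0.905), Spock3 (0.903), a testican proteoglycan, and Grin2b (0.900), an NMDA receptor subunit. For Gad2 they were Lrrc1 (0.935), the dynein gene Dnah1 (0.929) and the calmodulin-dependent kinase gene Camk1g (0.912). For Gad1 they were Ints3 (0.890), of the Integrator complex, Pcyox1 (0.834) and Ergic1 (0.829). For Slc32a1 they were Fahd1 (0.895), a mitochondrial enzyme, Mcts1 (0.889), a translation factor, and Ciart (0.864), a circadian repressor. For Gabra2 they were 1110059G10Rik (0.916), Klhl13 (0.912), a ubiquitin ligase adaptor, and Hnrnpa2b1 (0.902), an RNA-binding protein. Of the 60 places for the 10 most similar genes of each, 0 were held by another of the 6 genes or by a gene of the wider GABA list. Among the 6 themselves, r ran from 0.01 (Gad1 and Slc32a1) to 0.84 (Gabra4 and Gabrd) over 15 pairs. All these values share the same 12 arrays, of which the 3 old Q92 arrays lie apart for several genes.

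By position, Gad1, Gad2 and Slc32a1 lie on chromosome 2 and Gabrd on chromosome 4. Gabra2 and Gabra4 lie on chromosome 5, the chromosome that carries the knock-in in Htt, with 139 and 141 measured genes between them and Htt. They belong to a cluster of receptor genes in the order Gabrg1, Gabra2, Gabra4, Gabrb1. The differences at 18 months along this cluster were -0.31 for Gabrg1 (interval -0.79 to 0.18), -0.08 for Gabra2, -0.16 for Gabra4 and -0.07 for Gabrb1 (interval -0.26 to 0.11), none past the test. Htt itself, by its brightest probe set, differed by 0.10 at 18 months (interval -0.11 to 0.32) and by 0.30 at 3 months (interval 0.09 to 0.52, adjusted p = 1.00 in limma). Its 3 other probe sets lay between -0.26 and 0.11 at 18 months, and none passed.

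The other genes of the pathway were taken from a list of 45, of which 36 had a probe set of their own in the table used. None of the 36 passed in any of the 5 comparisons. At 18 months 23 were lower and 13 higher in Q92 mice (median -0.08), with 2 at an unadjusted p under 0.05 (8.03% of all genes) and 5 whose old groups did not overlap, all with Q92 below (6.76% of all probe sets). At 3 months 19 were lower and 17 higher (median -0.01), with 0 at that level. Of the 36, 25 were above the median gene. At 18 months 15 of these were lower and 10 higher in Q92 mice (median -0.046). The old groups did not overlap for 4 of them, all with Q92 below.

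By role, the 12 measured ligand-gated subunits were lower in 8 and higher in 4 at 18 months (median -0.10). They included Gabrg3, a γ subunit, at -0.29 (interval -0.63 to 0.04) with groups that did not overlap. Several of the lower and some of the higher subunits were below the median gene, with means of 3.02 to 4.32. All 5 measured genes of uptake and breakdown had lower means (median -0.18), but only 2 of them were above the median gene. The 10 scaffold and trafficking genes were lower in 6 and higher in 4 (median -0.03), with Shisa7, an auxiliary protein of GABA-A receptors, at -0.39 (interval -0.78 to -0.0042, adjusted p = 0.630 in limma). The 3 genes of the GABA-B receptor and its partners lay between -0.12 and 0.02, and the 2 chloride transporter genes at -0.08 (Slc12a5) and 0.03 (Slc12a2).

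Glul, the glutamine synthetase gene of astrocytes that supplies precursor for GABA, read 11.17 on average in old Q92 and 11.51 in old wild-type mice, a difference of -0.35 (interval -0.63 to -0.06, unadjusted p = 0.0201, adjusted p = 0.525 in limma) with overlapping groups. With age, Iqsec3, a gephyrin-binding exchange factor of inhibitory synapses, was 0.33 higher in old than in young wild-type mice (interval 0.12 to 0.54, adjusted p = 0.288) and 0.14 higher in old than in young Q92 mice. Gabra3, the α3 subunit, was 0.38 higher in old wild-type (interval -0.09 to 0.85) and 0.30 higher in old Q92 mice (interval -0.17 to 0.77). Gabrb2, the β2 subunit, was 0.26 higher in old than in young Q92 mice (interval -0.02 to 0.54). Slc12a2 and Gabrg1, the γ1 subunit, were 0.30 (interval -0.06 to 0.65) and 0.31 (interval -0.18 to 0.79) higher in old than in young wild-type mice. Gabrg3 was at -0.33 (interval -0.66 to 0.01) and Shisa7 at -0.26 (interval -0.65 to 0.13) in old against young Q92 mice. None of these passed.

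The remaining genes with the larger differences were Slc12a2, a chloride importer, at 0.21 (interval -0.15 to 0.56) and Kctd8, a GABA-B receptor partner, at 0.14 (interval -0.19 to 0.48) at 3 months, with Slc38a1, a glutamine transporter, at -0.14 (interval -0.41 to 0.14) and Gabrg3 at -0.19 (interval -0.52 to 0.14). The genotype difference of Gabarapl2, an autophagy and trafficking protein, was 0.27 more positive at 18 than at 3 months (interval -0.15 to 0.69), and that of Shisa7, Glul and Gabrg1 was more negative, by -0.36 (interval -0.91 to 0.19), -0.30 (interval -0.70 to 0.10) and -0.26 (interval -0.95 to 0.42). None of these passed either.

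**Figure D4:**
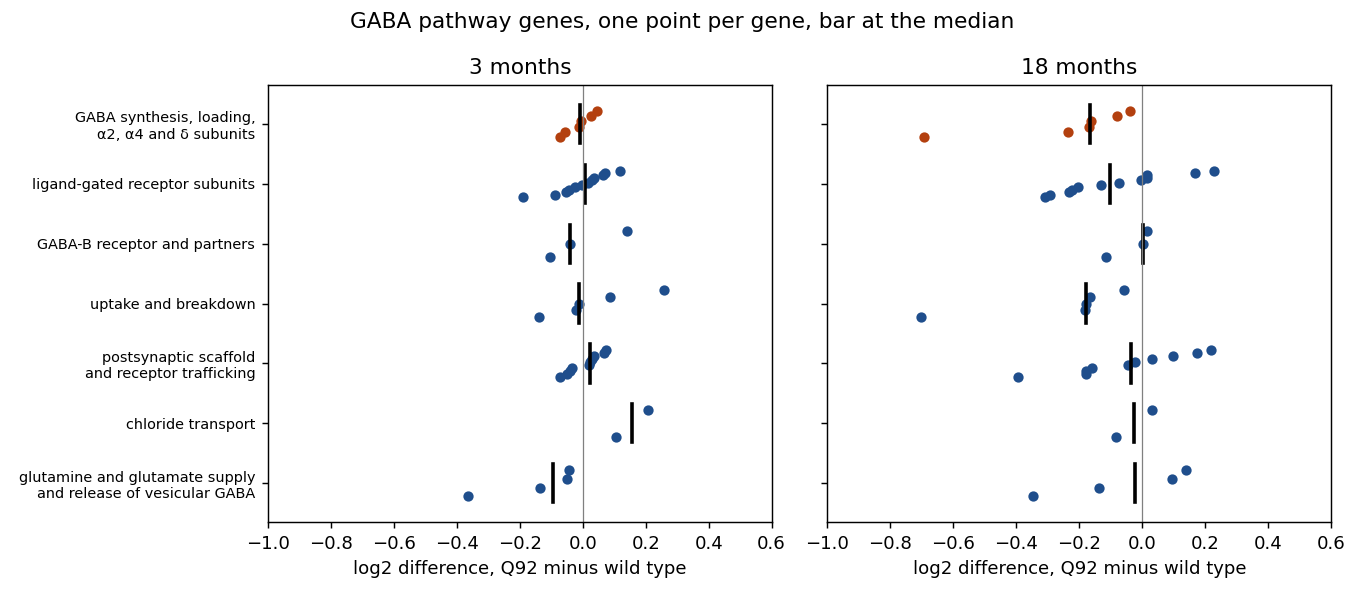
Log2 difference between Q92 and wild-type mice (x axis) at 3 and at 18 months for the 6 genes (red) and the 36 other measured GABA pathway genes (blue), grouped by role (y axis), with a bar at each median. The median of the 6 genes is -0.01 at 3 months and -0.17 at 18 months, with Gabrd at -0.69.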

How the data were processed

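The 12 Affymetrix arrays each hold striatal RNA of 1 mouse, so replicates are separate animals. The authors deposited a log2 signal for each probe set. RMA and the affy package are named without versions in the submitters' processing notes, and the sources used here do not say whether the arrays were normalised together. RMA matches the distribution of signals among the arrays it is run on, so each difference is to be read as relative to the rest of the array. The values (2.03 to 13.8) entered the fits unaltered. The arrays give no read depth or detection call, and their number limits the precision (median SE of a genotype difference 0.122).

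A mean per group was fitted to all 12 arrays with limma 3.58.1 in R 4.3.3 (8 residual degrees of freedom, 4.50 from the prior). P-values were adjusted by Benjamini-Hochberg over 45037 probe sets per contrast, without the 64 control probe sets, at a threshold of 0.05. The fit was tested on simulated data, with differences larger than those of the 6 genes. That check does not bear on differences of their size. Of the probe sets, 34945 had 1 gene in the probe table, 932 several and 9160 none. Besides the 6 genes, the text names, from the wider list in each contrast, the 4 with the largest difference among genes above the median signal and any that passed, and the 3 most similar genes per member. Members, lists and tests were chosen with earlier results of these data known. Gene order came from RefSeq (GRCm38.p6), used for names and order only. Promoter windows were taken from RefSeq with coordinates in that build.

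The alternatives were quantile normalisation, a common array median, a filter at the 40th percentile of mean signal, a robust prior that follows intensity, array weights, sex or 18S signal as a covariate, age in days as a block, a fit to the arrays compared alone, a fit over 1 probe set per gene, the mean or the most variable of a gene's probe sets, and each array left out. Leaving out both arrays of lowest mean correlation (young wild-type mouse 467 and old Q92 mouse 66) was added after seeing the data.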

Additional observations from a re-analysis of the deposited data

How the results depend on the processing

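None of the 6 genes, and none of the 36 genes of the wider list, passed under any alternative run for a comparison (25 for both genotype comparisons and 24 for the others, since age in days as a block was not run for ageing in either genotype and the arrays compared alone are all 12 for the change with age). The difference of Gabrd at 18 months stayed negative in all of its 25, from -0.79 to -0.25, with a lowest adjusted p of 0.0629 in limma (array weights). With age in days as a block it was -0.53 (4 residual degrees of freedom). For every gene, that block fit at 18 months compares Q92 mouse 11 with wild-type mice 12 and 17 alone, all of 596 days. Each of the other old mice had an age in days of its own. The mean over both Gabrd probe sets gave the value nearest 0 because the dim second probe set enters it. At 18 months Gad2 ran from -0.30 to -0.06 and Slc32a1 from -0.26 to -0.09. Of 732 values for the 6 genes under alternatives, 680 kept their direction and 52 changed sign, none of the latter called in any setting. The cause was not tested except where another probe set entered by construction. Part of the values that kept their direction could not change. The filter, the robust prior and the fits to the arrays compared or to 1 probe set per gene leave group means as they were. So does leaving out an array of a group not compared. For Gabrd the most variable probe set is also the brightest.

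For Gabra2 the sign changed at 18 months with the block (0.018), the mean of probe sets (0.15) and the most variable probe set (0.40), in the change with age with the mean (0.080) and the most variable probe set (0.11), and in wild-type ageing with quantile normalisation (-0.020), the mean (-0.097) and the most variable probe set (-0.12). For Gabra4 it changed at 18 months with the mean (0.013) and the most variable probe set (0.19), at 3 months with array weights (0.024), the mean (0.11), the most variable probe set (0.22) and both arrays left out (0.010), and in wild-type ageing with array weights (0.000712). For Gabrd it changed only in wild-type ageing with the common median (0.014), array weights (0.051) and both arrays left out (0.070), apart from single arrays below. For Gad1 it changed at 18 months with the block (0.022) and in the change with age with array weights (-0.0096), the most variable probe set (-0.0032) and both arrays left out (-0.014). For Gad2 it changed in wild-type ageing with the common median (0.015) and at 3 months with the mean (0.042) and the most variable probe set (0.098). For Slc32a1 it changed in wild-type ageing with the mean (-0.00203) and the most variable probe set (-0.088) and at 3 months with sex as a covariate (-0.00361) and the mean (-0.041).

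Leaving out single arrays crossed 0 in these ranges. In wild-type ageing they were -0.11 to 0.087 for Gabra2, -0.075 to 0.022 for Gabra4, -0.12 to 0.094 for Gabrd and -0.024 to 0.024 for Gad2. At 3 months they were -0.077 to 0.12 for Gabra2, -0.041 to 0.041 for Gabra4, -0.19 to 0.0044 for Gabrd, -0.033 to 0.012 for Gad2 and -0.028 to 0.075 for Slc32a1. For Gad1 they were -0.084 to 0.038 at 18 months, -0.075 to 0.047 in Q92 ageing and -0.027 to 0.095 in the change with age. No groups shared replicate numbers. Signals near the bottom of the scale (the second probe set of Gabrd, the dimmest of Slc32a1 and the 2 dimmest of Gabra2) limit what those probe sets can show.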
